A study of Apis mellifera with 2 samples.

Results

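The 9 major royal jelly protein genes of the honeybee, Mrjp1 to Mrjp9, were taken by symbol from the 2 deposited count matrices, which hold them among 12245 genes listed for both. Nuclei came from pooled brains of pollen-carrying Apis mellifera carnica foragers whose colonies were sprayed either with bromocriptine in water (BRC), a dopamine receptor agonist, or with water alone (ddH2O). Ocelli and compound eyes were removed at dissection, and no age or genotype is given in the sources used here. The titles of both samples speak of feeding, whereas the treatment field and the study's methods describe a spray. Each condition is 1 droplet-based single-nucleus library of 20000 barcodes, with 76531513 UMIs (unique molecular identifiers, one per captured RNA molecule) in BRC and 77047419 in ddH2O. There is therefore no replicate check, no test between the conditions was possible, and treatment and library cannot be told apart. Intervals are 95% intervals of counting error alone.

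Major royal jelly proteins are the main proteins of the food that nurse bees give to larvae, and they are made in large amounts by the hypopharyngeal glands of the head, which lie beside the brain. The genes arose in bees from the yellow gene family and stand in tandem on 1 chromosome. Mrjp1 encodes the most abundant royal jelly protein, whereas Mrjp8 and Mrjp9 proteins are also known from venom. In foragers the same glands turn to making enzymes of nectar processing, among them the alpha-glucosidase encoded by Hbg3.

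On the Amel_HAv3.1 assembly, the members occupied 57431 bp of linkage group 11, from the start of Mrjp3 at 2268450 to the end of Mrjp9 at 2325880. Their order along the group was Mrjp3, Mrjp1, Mrjp4, Mrjp6, Mrjp5, Mrjp2, Mrjp7, Mrjp8 and Mrjp9, and each annotated gene spanned 3041 to 7082 bp. Both gene neighbours at the ends belong to the yellow family: Y-e3 (2259179 to 2265574) lies before Mrjp3 and Y-h (2327583 to 2341854) after Mrjp9. Mrjp5 (2291758 to 2298839) overlaps 2 other annotated genes, and one of them, the noncoding LOC113219122 (2297579 to 2301925), also runs into Mrjp2 (2301533 to 2304856). The members are similar in sequence and the counting strand is not given in the sources used here, so reads shared between members or with these overlapping genes could have been assigned to the wrong one. The file headers also name different versions of the counting software and list different numbers of features, and a difference in gene models between the libraries cannot be told apart from one in RNA.

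Royal jelly protein RNA was 10.3 times as abundant in the BRC library. All 9 members together gave 629662 UMIs in BRC, or 8228 CPM (UMIs per 1000000 of the library), against 61336 UMIs or 796 CPM in ddH2O. This was 0.823% of all UMIs in BRC and 0.0796% in ddH2O, so that the log2 ratio was 3.37 (interval 3.36 to 3.38). All members had more CPM in BRC, and 8 of the 9 passed 2-fold, beside 16.8% of the 10704 genes with at least 100 UMIs that were at least 2-fold higher and 14.9% that were at least 2-fold lower. The median log2 ratio was 3.28 over the members and -0.02 over those genes. In such sums, more nuclei of a kind and more RNA per nucleus cannot be told apart.

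The members differed widely in the size of this ratio. Mrjp6 showed the widest gap, with 111230 UMIs (1454 CPM) in BRC and 405 (5.26 CPM) in ddH2O, which is log2 8.11 (7.97 to 8.26). Mrjp9 went from 6 UMIs in ddH2O to 1277 in BRC, with a log2 ratio of 7.74 (6.62 to 9.19) that is loose because of the low ddH2O count. Mrjp5 had 109282 UMIs (1428 CPM) against 3626 (47.1 CPM), log2 4.92 (4.88 to 4.97), and Mrjp4 had 23872 (312 CPM) against 1354 (17.6 CPM), log2 4.15 (4.07 to 4.23). These 4 members exceeded the family average, although Mrjp5 and Mrjp4 did so by far less than Mrjp6.

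Mrjp1, the member with the most UMIs in both libraries, had 282096 UMIs (3686 CPM) in BRC and 29224 (379 CPM) in ddH2O, log2 3.28 (3.26 to 3.30). Mrjp2 had 54818 UMIs (716 CPM) against 9923 (129 CPM), and Mrjp7 had 11917 (156 CPM) against 2155 (28.0 CPM). Both gave a log2 ratio of 2.48, with intervals of 2.44 to 2.51 for Mrjp2 and 2.41 to 2.54 for Mrjp7. Mrjp3, second in UMIs in ddH2O with 14135 (183 CPM), reached 34351 (449 CPM) in BRC, log2 1.29 (1.26 to 1.32). Mrjp8 was the nearest to equal, with 819 UMIs (10.7 CPM) in BRC and 508 (6.59 CPM) in ddH2O, log2 0.70 (0.54 to 0.86). The ratio of Mrjp3 fell below 2-fold in several other settings, down to log2 0.17 without the nuclei that stood far above background, which are described further on.

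**Figure D1:**
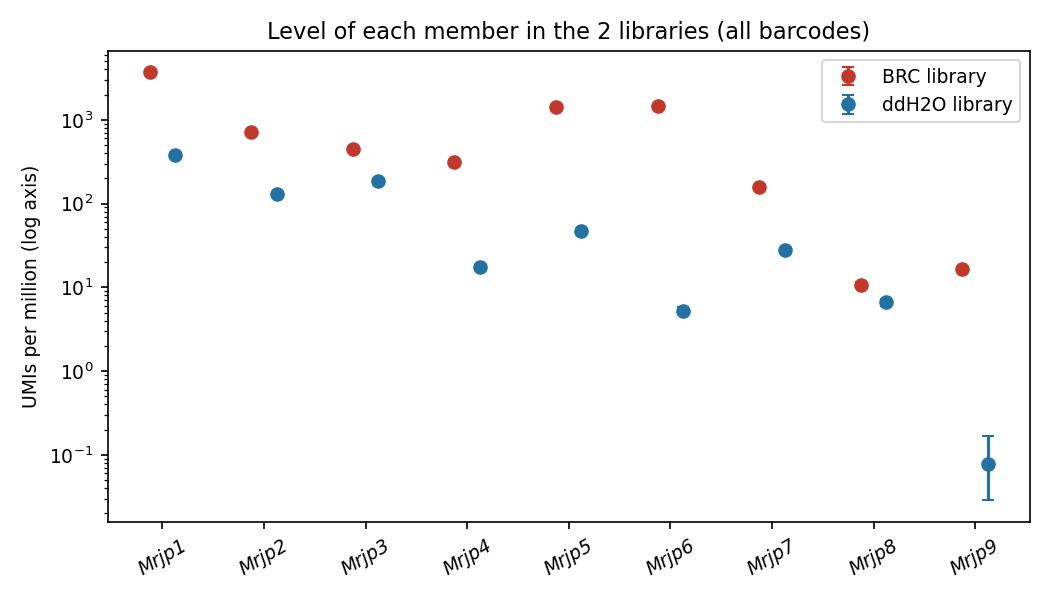
Level of each member as CPM (log axis), with exact Poisson 95% intervals over all 20000 barcodes of the BRC (red) and ddH2O (blue) libraries. The points lie far apart for Mrjp6 (1454 against 5.26) and Mrjp9 (16.7 against 0.0779) and close together for Mrjp8 (10.7 against 6.59).

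The make-up of the family therefore differed between the libraries. In ddH2O the order of UMIs was Mrjp1 with 47.6% of the family, Mrjp3 with 23.0%, Mrjp2 with 16.2%, Mrjp5 with 5.91% and Mrjp7 with 3.51%. Mrjp6 made up 0.66% there. In BRC the order was Mrjp1 with 44.8%, Mrjp6 with 17.7%, Mrjp5 with 17.4%, Mrjp2 with 8.71% and Mrjp3 with 5.46%. Mrjp1 thus held a share of similar size while Mrjp6 and Mrjp5 held the places that Mrjp3 and Mrjp2 held in ddH2O.

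Because the members differ in length, their levels were also set side by side per kb of annotated gene span. On this scale Mrjp1 took 49.5% in BRC, followed by Mrjp6 with 20.8%, Mrjp2 with 9.37%, Mrjp5 with 8.76%, Mrjp3 with 5.45%, Mrjp4 with 3.80% and Mrjp7 with 2.06%. In ddH2O it took 50.7%, followed by Mrjp3 with 22.2%, Mrjp2 with 16.8%, Mrjp7 with 3.68%, Mrjp5 with 2.88%, Mrjp4 with 2.13%, Mrjp8 with 0.92% and Mrjp6 with 0.75%. Mrjp5, the member with the longest span, moved down 1 place in each library through this scaling, and no replicate gives the spread of these orders.

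Taken in pairs, the members ranged from a ratio that was alike in both libraries to one that turned over. Mrjp3 UMIs outnumbered those of Mrjp6 by 34.9 to 1 in ddH2O, but in BRC the ratio was 0.309 to 1 (log2 change -6.82, -6.96 to -6.68). Mrjp2 and Mrjp7 stood at 4.60 to 1 in BRC and 4.60 to 1 in ddH2O (log2 change -0.00, -0.07 to 0.07). The ratio of Mrjp6 to Mrjp9 was 87.1 in BRC and 67.5 in ddH2O, and the 6 Mrjp9 UMIs of ddH2O leave a wide interval for the log2 change of 0.37 (-0.80 to 1.53). Mrjp1 to Mrjp2 was 5.15 in BRC and 2.95 in ddH2O, and Mrjp1 to Mrjp3 was 8.21 and 2.07.

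Members were detected in nearly every BRC nucleus. The median nucleus held 14 family UMIs in BRC and 2 in ddH2O, with means of 31.5 and 3.07. The upper ends were further apart than the medians, with 411 UMIs at the 99th percentile and at most 2731 in BRC, against 9 and at most 877 in ddH2O. The variance was 222 times the mean in BRC and 33.5 times in ddH2O, where pure counting error at a constant level would give a value near 1. The 1006 nuclei with the most family UMIs held 50% of them in BRC, and 4431 nuclei did so in ddH2O.

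Detection followed the same order after each nucleus was thinned to 1000 UMIs, which sets all nuclei to the same depth. Thinning discards a larger part of the deeper ddH2O nuclei (median 3327 UMIs) than of BRC nuclei (2109). The family count hardly moved with depth, as given below, so thinning itself widens the gap between the libraries. Any member was then detected in 98.2% of BRC nuclei (98.0 to 98.4) and 52.4% of ddH2O nuclei (51.7 to 53.1), and without thinning in 99.97% and 91.9%. Mrjp1 was found in 92.3% against 30.4%, Mrjp5 in 68.2% against 4.15%, and Mrjp6 in 53.2% against 0.365%. For Mrjp3 the thinned shares were 24.8% and 16.9%, but without thinning they were 45.5% and 46.5%. For Mrjp8 the thinned shares were 0.975% and 0.63%. Mrjp9 was found in 0.985% of thinned BRC nuclei and in none of 20000 in ddH2O, where the interval reaches 0.0184%. Free RNA in droplets can give such UMIs in nuclei that do not express a gene, so these shares are not read as expression.

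In most nuclei the family count hardly moved with depth. BRC nuclei were split by total UMIs into 10 bins of 2000. The median family count was 12 in the shallowest bin (median depth 1207 UMIs) and 16 in the ninth (4825 UMIs), but 87 in the deepest (14027.5 UMIs). In ddH2O the median was 2 or 3 in every bin, over median depths of 2538 to 6769 UMIs. The make-up of Mrjp1 to Mrjp7 was also even in BRC. Over its first 9 bins, Mrjp1 held 54.1 to 55.1% of family UMIs, Mrjp5 17.3 to 19.0%, Mrjp6 10.1 to 11.9% and Mrjp2 8.25 to 9.11%. Mrjp8 and Mrjp9 were not even: over the same bins Mrjp8 went from 0.060 to 0.296% and Mrjp9 from 0.072 to 0.312%, each highest in the ninth bin. The deepest bin stood apart, with Mrjp1 at 35.2% and Mrjp6 at 24.6%. In ddH2O over the first 9 bins Mrjp1 held 46.8 to 49.6%, Mrjp3 21.7 to 24.5% and Mrjp6 0.20 to 0.51%, while Mrjp8 went from 0.449 to 1.06%.

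Against this background a subset of nuclei held far more family RNA. A nucleus was called far above background when its family UMIs had a Poisson tail under 1e-06. The expected count came from its own depth and the rate of the remaining nuclei. Counting error alone would pass this limit in about 0.02 nuclei per library if the background rose in proportion to depth. It did not, so the limit was easier to pass in shallow nuclei. The rule called 152 nuclei in the shallowest BRC bin, 67 in the seventh and 823 in the deepest. In all it gave 1762 BRC nuclei (8.81%) and 84 ddH2O nuclei (0.42%). The BRC nuclei carried 342676 family UMIs, 54.4% of the family in 25.3% of all UMIs, with 21 to 2731 per nucleus and a median of 126. The ddH2O nuclei carried 7327, 11.9% of the family in 0.761% of all UMIs, with 13 to 877 per nucleus and a median of 39. The other nuclei had medians of 13 and 2.

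These nuclei were deeper than the rest, at a median of 5437.5 against 2053 UMIs in BRC and 4142.5 against 3325 in ddH2O. Of the BRC nuclei 852 (48.4%) passed the filters of the study without being called a likely doublet, and of the ddH2O nuclei 59 (70.2%) did. Since the background count did not grow with depth, the call was repeated with a constant count, which gave 2012 and 88 nuclei, and 1446 and 80 met both rules. In 186 BRC nuclei and 7 ddH2O nuclei the family made up at least 5% of all UMIs. The highest BRC nucleus held 2731 family UMIs among 14928 (18.3%), 1849 of them from Mrjp1, 460 from Mrjp5 and 49 from Mrjp6. The highest ddH2O nucleus held 877 among 3480 (25.2%), 498 of them from Mrjp1, 190 from Mrjp3 and 1 from Mrjp6. The member that came second to Mrjp1 varied within each library: in the 3 highest nuclei it was Mrjp5, Mrjp2 and Mrjp5 in BRC and Mrjp3, Mrjp2 and Mrjp5 in ddH2O.

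The make-up of these nuclei matched neither the background nor the other library. In BRC the nuclei far above background had less Mrjp1 than the others (40.4% against 50.001% of family UMIs) and more Mrjp6 (20.1% against 14.7%), Mrjp3 (6.90% against 3.73%) and Mrjp4 (5.22% against 2.09%). In ddH2O they had more Mrjp4 (5.39% against 1.78%) and Mrjp6 (2.62% against 0.39%) and less Mrjp3 (19.1% against 23.6%) than the others. In CPM, Mrjp8 and Mrjp9 were not higher in the BRC nuclei far above background, at 0.637 and 0.582 times the others. For Mrjp1 to Mrjp7 the values were 2.86 to 8.83 times. Per nucleus Mrjp8 and Mrjp9 were higher there, as these nuclei were deeper. The 1762 nuclei held 145 Mrjp8 and 210 Mrjp9 UMIs, against 674 and 1067 in the other 18238. Hbg3 CPM was higher in nuclei far above background, at 6304 against 1809 CPM in BRC and 101 against 20.02 CPM in ddH2O.

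**Figure D2:**
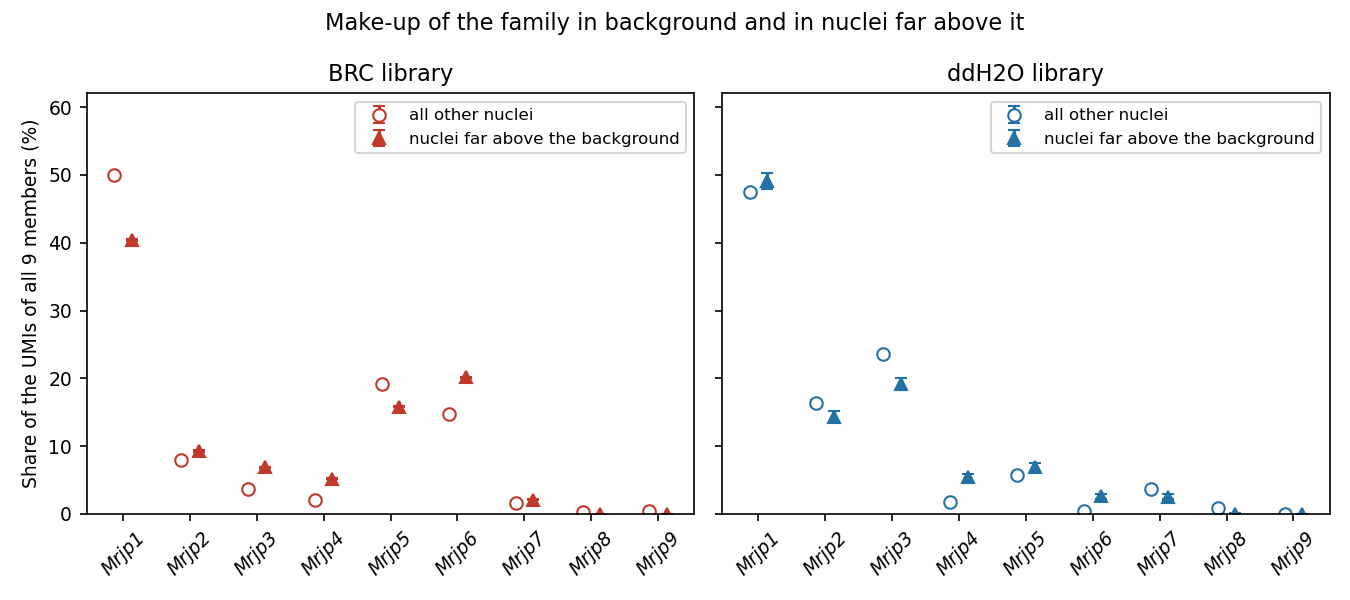
Share of each member in the UMIs of all 9 (%), with Clopper-Pearson 95% intervals, in nuclei far above the background (filled triangles) and in all other nuclei (open circles), for the BRC (left) and ddH2O (right) libraries. Mrjp6 is at 20.1% and 14.7% in BRC and at 2.62% and 0.39% in ddH2O, where Mrjp3 is at 19.1% and 23.6%.

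Within the BRC library the nuclei far above background were of more than 1 make-up. The member with the most UMIs was Mrjp1 in 1404, Mrjp6 in 303, Mrjp5 in 29, Mrjp3 in 24 and Mrjp2 in 2 of them. Nuclei led by Mrjp6 were very deep (median 16618 UMIs), with 56.8% of family UMIs from Mrjp6 and 17.0% from Mrjp1, and their Hbg3 level was 11131 CPM. Those led by Mrjp1 had a median depth of 3078.5 UMIs, 47.6% Mrjp1 and 11.5% Mrjp6, and 4574 CPM of Hbg3. In ddH2O Mrjp1 led in 77, Mrjp3 in 5, Mrjp2 in 1 and Mrjp4 in 1, and Mrjp6 led in none of the 84. The leading member chose these sets, so their Mrjp shares describe them and are no finding.

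When each member was held against its own background by the same limit, 1016 BRC nuclei were far above for Mrjp1, 883 for Mrjp6, 565 for Mrjp5, 528 for Mrjp2, 505 for Mrjp4, 403 for Mrjp3 and 183 for Mrjp7. In ddH2O the numbers were 67 for Mrjp1, 36 for Mrjp3, 29 for Mrjp2, 24 for Mrjp5, 21 for Mrjp4, 14 for Mrjp6 and 11 for Mrjp7. Mrjp7 and Mrjp2 went together: 172 nuclei were high for both in BRC, 94.0% of those high for Mrjp7 and 32.6% of those high for Mrjp2. Nuclei high for Mrjp7 were nearly as often high for Mrjp3 (89.6%), Mrjp1 (82.5%) and Mrjp4 (82.5%). The shares were lower for Mrjp5 (61.7%) and Mrjp6 (57.4%), and no such nucleus was high for Mrjp8 or Mrjp9. Mrjp3 and Mrjp2 shared 327, or 81.1% of the nuclei high for Mrjp3 and 61.9% of those high for Mrjp2. Mrjp1 and Mrjp6 overlapped less, with 296 shared, or 29.1% and 33.5%.

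Across the 1131 BRC nuclei with at least 100 family UMIs, log2(UMIs + 1) of Mrjp2 correlated with that of Mrjp7 (r = 0.79), Mrjp3 (0.78) and Mrjp1 (0.73). Mrjp6 ran against Mrjp1 (r = -0.27) and Mrjp2 (-0.20) but with Mrjp5 (0.30) and Mrjp4 (0.28). These values describe nuclei of 1 library chosen by their family count, which differ in depth, and no test is attached to them.

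**Figure D3:**
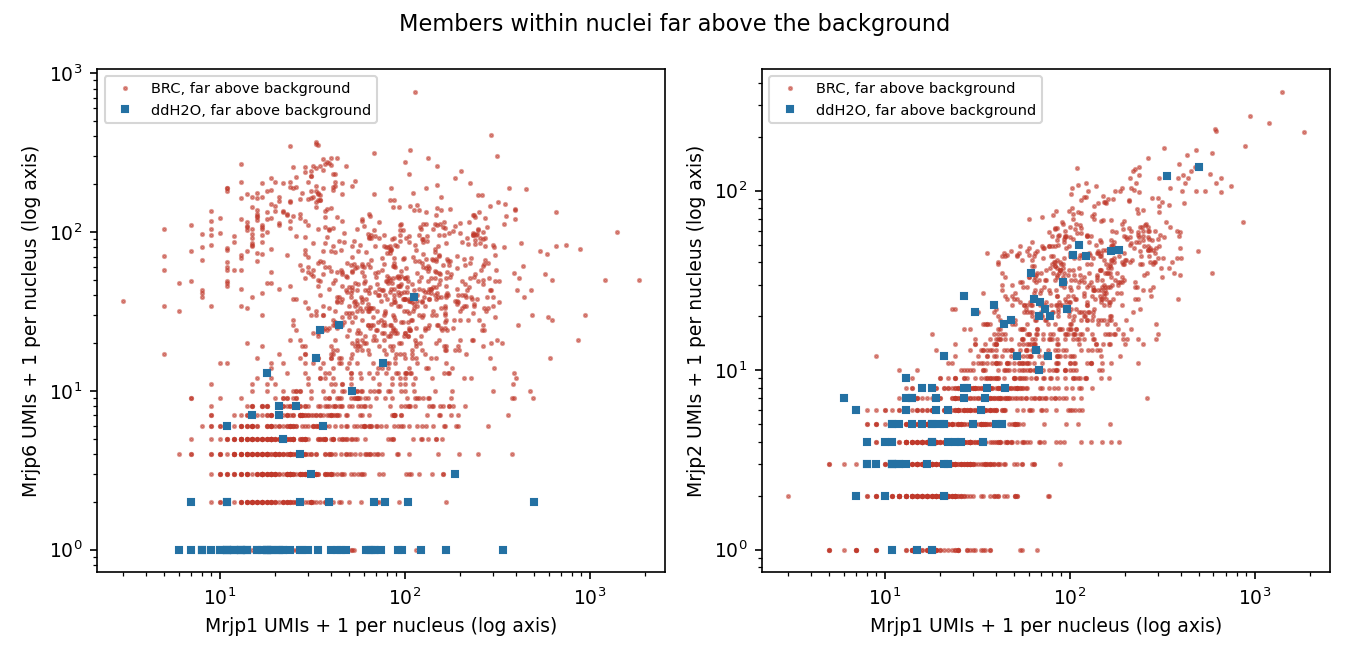
UMIs + 1 per nucleus of Mrjp6 against Mrjp1 (left) and of Mrjp2 against Mrjp1 (right), both axes logarithmic, 1 point per nucleus far above the background in BRC (1762, red) and ddH2O (84, blue). Mrjp2 rises with Mrjp1, whereas Mrjp6 spreads over nuclei of both high and low Mrjp1, with 296 nuclei high for both.

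To see which nuclei these were, all deposited barcodes were clustered, a step chosen after the data were seen. The members and the matched genes of the lists described below, except the photoreceptor list, were kept out of the variable features. Nuclei far above background occurred in 31 BRC and 22 ddH2O clusters of any size, where 34 and 27 clusters held at least 20 nuclei. In BRC 1 cluster, number 11, held 863 of the 1762. It had 1381 BRC nuclei at a median of 16792 UMIs, of which 435 passed the filters of the study, with 209 family UMIs per nucleus and 62.5% far above background. Of the 883 nuclei high for Mrjp6 it held 792. In CPM, which takes its depth into account, the cluster was level with other BRC nuclei for Mrjp1 (3661 against 3699). It was higher for Mrjp6 (3068 against 647), Mrjp4 (727 against 104) and Mrjp3 (822 against 263). The cluster was higher by less for Mrjp2, Mrjp5 and Mrjp7, and lower for Mrjp8 and Mrjp9. Its Hbg3 level was 6396 CPM against 1219 CPM elsewhere in BRC, while the glial marker repo was at 12.7 against 358 CPM and the neuronal markers fne and nSyb at 64.0 against 845 and 61.96 against 723 CPM. By these markers the cluster was neither glia nor neurons, and it was left unnamed.

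In ddH2O the same cluster had 16 nuclei, at a median depth of 16864.5 UMIs, and all 16 were far above background with 110 family UMIs per nucleus. Their make-up was Mrjp1 31.7%, Mrjp3 25.2%, Mrjp4 16.3%, Mrjp6 10.1% and Mrjp2 7.54%, whereas BRC nuclei of the cluster had Mrjp1 32.4%, Mrjp6 27.2%, Mrjp5 16.2%, Mrjp2 8.36%, Mrjp3 7.27% and Mrjp4 6.44%. Hbg3 stood at 13.2 CPM in the ddH2O nuclei, close to the 20.02 CPM of ddH2O nuclei not above background. The cluster was thus present in both libraries, with 1381 nuclei against 16, but its Hbg3 RNA was high in BRC alone.

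Another cluster of all barcodes, number 18, held 259 of the BRC nuclei far above background and differed in kind. Its 487 BRC nuclei had a median of 1896 UMIs, 114 family UMIs per nucleus, 61.4% Mrjp1 and 5.60% Mrjp6, and an Hbg3 level of 2739 CPM, near the 2951 CPM of other BRC nuclei. Vg, which encodes the yolk protein vitellogenin, stood at 409 against 12.3 CPM elsewhere. In ddH2O cluster 18 had 181 nuclei with 12.2 family UMIs each, 6 of them far above background. Cluster 25 held 14 such nuclei among 100 in ddH2O and 14 among 174 in BRC.

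A second clustering, with its own cluster numbers, took the nuclei that passed the filters and were not likely doublets. In it the family UMIs per nucleus, a count not scaled to depth, were nearly the same in most clusters. Per nucleus and cluster the median was 14.3 family UMIs in BRC and 2.81 in ddH2O, and 21 of 22 BRC clusters and 18 of 20 ddH2O clusters of at least 20 nuclei lay within 1.5-fold of it. Kenyon cell-like nuclei, of the mushroom bodies, had 15.2 and 2.90, astrocyte-like glia 14.4 and 2.74, cortex-like glia 14.0 and 2.83, surface-like glia 13.8 and 2.67, optic lobe cell-like nuclei 13.8 and 2.88, and ensheathing-like glia 13.6 and 2.66. The photoreceptor-like cluster, compared in BRC only, had 13.6. In UMIs per nucleus these named types thus lay within 1.5-fold of one another inside each library. The types differed in depth, so this does not hold for CPM. The deeper cortex-like nuclei had a lower family CPM than Kenyon cell-like nuclei in both libraries.

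The exceptions were clusters without a name. In BRC cluster 13, with 547 nuclei, had 73.3 family UMIs per nucleus (72.6 to 74.0), and 34.0 without its 299 nuclei far above background. Mrjp6 made up 27.9% of its family UMIs and Hbg3 stood at 6273 CPM. In ddH2O cluster 18, with 77 nuclei, had 21.4 (20.4 to 22.5), and 3.60 without the 12 far above background. The next highest values were 18.9 in BRC, in the same cluster 18, and 4.44 in ddH2O, in cluster 3 with 50 nuclei.

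**Figure D4:**
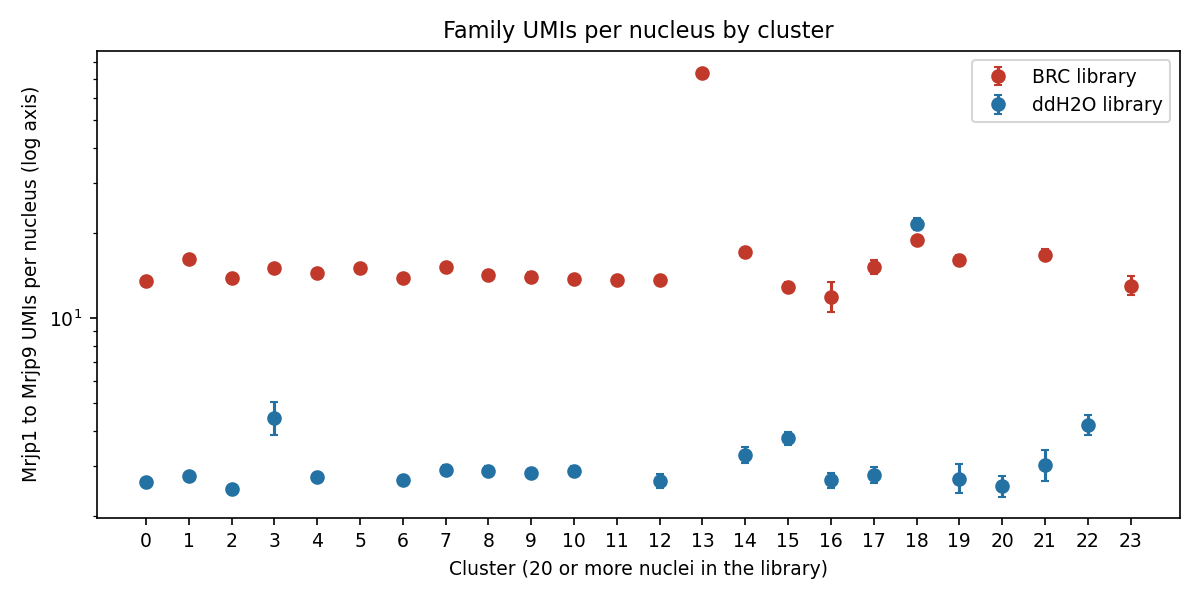
UMIs of Mrjp1 to Mrjp9 per nucleus (log axis) in each cluster of at least 20 nuclei, for nuclei that passed the filters without likely doublets, in BRC (red) and ddH2O (blue), with exact Poisson 95% intervals. BRC clusters lie between 11.9 and 18.9 apart from cluster 13 at 73.3, and ddH2O clusters between 2.50 and 4.44 apart from cluster 18 at 21.4.

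Per nucleus, the gap between the libraries was similar in most clusters. Over the 18 clusters with at least 20 nuclei in both, the log2 ratio of family UMIs per nucleus had a median of 2.36 (-0.18 to 2.57), with the interval above 0 in 17 and below 0 in cluster 18. For Mrjp6 the median was 7.06 (4.14 to 7.91) and for Mrjp5 4.01, both above 0 in all 18. Mrjp1 had a median of 2.52, Mrjp4 2.20, Mrjp2 1.41 and Mrjp7 1.41. Mrjp3 and Mrjp8 had medians below 0. For Mrjp3 it was -0.09 (-2.25 to 0.25), with an interval above 0 in no cluster and below 0 in 5. For Mrjp8 it was -0.51 (-1.58 to 1.64) over the 15 clusters with a UMI in both libraries, with an interval above 0 in 1 and below 0 in 1. On the CPM scale, which divides by the lower depth of BRC nuclei, the medians were 0.62 for Mrjp3 and 0.26 for Mrjp8. So in nuclei of these clusters Mrjp3 UMIs per nucleus were close to equal in both libraries while those of Mrjp6 and Mrjp5 were far apart.

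Mrjp8 was the one member whose highest cluster was a named brain cell type in both libraries. This was the cortex-like glia, which enwrap neuronal cell bodies. The name rests on 1 cortex glia marker, zyd, with the glial markers repo and bdl. Gat-1B of astrocytes, eya of optic lobe cells and the monoaminergic marker Vmat were raised there too. In this cluster Mrjp8 reached 0.255 UMIs per nucleus in BRC (0.188 to 0.340, 47 UMIs in 184 nuclei) and 0.166 in ddH2O (0.143 to 0.191, 193 UMIs in 1163 nuclei). The median over clusters was 0.00914 in BRC and 0.0122 in ddH2O. The next cluster stood at 0.0903 (0.0782 to 0.104) in BRC, below that interval, and at 0.0625 (0.0203 to 0.146) in ddH2O, where the intervals touch. Kenyon cell-like nuclei had 0.0093 and 0.0186 UMIs per nucleus.

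The cortex-like nuclei were deeper, with medians of 2899 UMIs in BRC and 4660 in ddH2O against 1489 and 2932 in Kenyon cell-like nuclei. As CPM, Mrjp8 was at 59.8 against 5.66 in BRC and at 31.6 against 5.97 in ddH2O. The share of nuclei with a Mrjp8 UMI was 19.6% against 0.814% in BRC and 14.1% against 1.86% in ddH2O. After thinning to 1000 UMIs the shares were 3.61% (2.62 to 4.85) against 0.620% (0.201 to 1.44) in ddH2O, with separate intervals. In BRC they were 2.17% (0.595 to 5.47) against 0.465% (0.127 to 1.19), with intervals that overlap, so at this thinned depth a difference was not detectable there.

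Other clusterings gave a like result in ddH2O and a partly different one in BRC. In ddH2O the cluster that carried zyd had the highest Mrjp8 level in all 5 clusterings tried, though it did not earn the cortex name when likely doublets were kept, and at the finer resolution a second cluster came close (0.173 against 0.151). In BRC it was highest without integration (0.397) and at the finer resolution (0.421). With likely doublets kept it was second at 0.305 to an unnamed cluster at 0.422, and over all barcodes second at 0.323 to an unnamed cluster at 0.559. Cortex-like nuclei also came second in Mrjp7, at 0.451 UMIs per nucleus in BRC (0.359 to 0.559) and 0.257 in ddH2O (0.229 to 0.288), against 0.224 and 0.084 in Kenyon cell-like nuclei. In CPM, however, Mrjp7 was lower in cortex-like than in Kenyon cell-like nuclei of BRC (106 against 137) and higher in ddH2O (49.0 against 27.1).

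**Figure D5:**
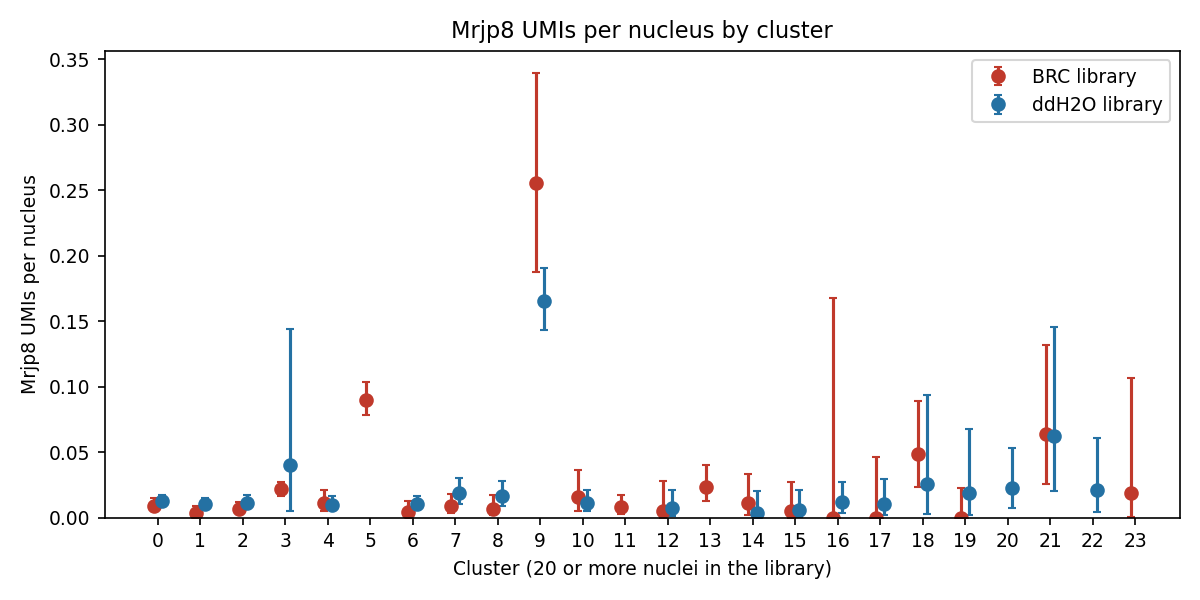
Mrjp8 UMIs per nucleus in each cluster of at least 20 nuclei of BRC (red) and ddH2O (blue), with exact Poisson 95% intervals. Cluster 9, the cortex-like glia, is highest in both libraries, at 0.255 and 0.166, with the remaining clusters at 0.0903 or less.

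Mrjp9 RNA was concentrated in a small separate set of nuclei. Of the 1277 Mrjp9 UMIs in BRC, 608 (47.6%) were in 45 nuclei far above its background, with a median of 10 each, and in ddH2O its 6 UMIs were in 6 nuclei. None of the 45 was far above background for any of Mrjp1 to Mrjp7, and the CPM of those members in them was 0.053 to 0.138 times that of the other BRC nuclei. Hbg3 CPM was likewise low, at 0.0768 times. CPM divides by depth, which was high in these nuclei, and per nucleus the counts were not low. The median was 9 UMIs of Mrjp1, 3 of Mrjp5 and 3 of Hbg3. In BRC nuclei not above the family background it was 7, 2 and 3. In CPM, Mrjp8 was higher in the 45, at 6.64 times (56 of its 819 UMIs). The 5 nuclei far above background for Mrjp8 were all among the 45. Acph-1, which encodes an acid phosphatase of venom, was 10.996 times as high, with 360 of its 3322 UMIs, and Y-h was 2.50 times as high.

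All 45 nuclei lay in cluster 31 of all barcodes, which had 102 BRC nuclei with 6.67 Mrjp9 UMIs each, and none far above background for the family. The glial marker repo stood at 16.1 against 247 CPM and the neuronal marker fne at 86.3 against 594 CPM. The venom genes Melt, for melittin, and Pla2, for phospholipase A2, had 0 UMIs there. Both were also near the floor elsewhere in BRC, at 1.14 and 0.0133 CPM, so their absence says little. The leading gene of the cluster, LOC406146, is listed by an identifier only and stood at 26067 against 84.1 CPM elsewhere. None of the 45 passed both the filters and the doublet call: 25 were called likely doublets and 20 failed the filters. Their median depth was 13024 UMIs, and the part that doublets have in this set was not tested.

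The relatives of the members moved in both directions. The yellow genes that border the locus were higher in BRC, with 2858 against 40 UMIs for Y-h (log2 6.17) and 370 against 27 for Y-e3 (log2 3.79). Y-y, the counterpart of the fly yellow pigmentation gene, had 164 against 455 UMIs (log2 -1.46), and Y-f had 7622 against 10405 (log2 -0.44). So 2 of 4 yellow genes were at least 2-fold higher and 1 at least 2-fold lower, beside the 16.8% and 14.9% over all genes.

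The higher level was shared with parts of the flanks. Among the 25 genes before the locus, 10 of the 15 with at least 100 UMIs were at least 2-fold higher in BRC and none lower, with a median log2 ratio of 2.36. Among the 25 after it, 7 of 23 were higher and 3 lower, with a median of 0.03. Over all genes with at least 100 UMIs, 16.8% were at least 2-fold higher and 14.9% at least 2-fold lower. Between the members, the noncoding LOC113219122 had 1078 against 135 UMIs and LOC102654709 had 785 against 10.

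In the gland, storage protein and venom lists, 3 of 6, 5 of 6 and 5 of 8 entries were matched to a gene. Apisimin, glucose oxidase and alpha-amylase of the gland list and hyaluronidase of the venom list were not matched. Such genes may be present under an identifier alone, so the counts below do not cover them. The few genes counted stand beside 16.8% of all genes at least 2-fold higher and 14.9% at least 2-fold lower. Of the gland list, Hbg3 had 225326 against 1590 UMIs (log2 7.16) and the alpha-glucosidase AGLU2 had 3389 against 2296 (log2 0.57), so 1 of 2 with at least 100 UMIs passed 2-fold. Of the storage proteins 1 of 4 was higher and 2 were lower: Vg had 1822 against 91 UMIs (log2 4.33), while HEX70b had 108 against 409 and Hex110 had 28 against 106 (log2 -1.91 each). Hex70a had 52 against 74 (log2 -0.50). Of the venom list Acph-1 had 3322 against 120 UMIs (log2 4.80) and Melt had 86 against 54 (log2 0.68).

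Markers of tissue beside the brain also moved with the library. All 7 photoreceptor genes listed were at least 2-fold higher in BRC, beside 16.8% of all genes with at least 100 UMIs. Their median log2 ratio was 4.71 (2.36 to 6.34), and the photoreceptor-like cluster had 746 nuclei in BRC and 6 in ddH2O. The long-wavelength opsin gene Lop1 had 73750 against 915 UMIs. The part of such tissue in the Mrjp levels was not tested.

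The genes whose levels over clusters were most like the family sum were LOC406093, LOC113218518 and Def1, which encodes an antimicrobial defensin. Their Pearson r with the family, on log2(CPM + 5), was 0.986, 0.978 and 0.955 over 22 BRC clusters and 0.990, 0.965 and 0.927 over 20 ddH2O clusters, the highest of 9597 candidates by the smaller of both values. Hbg3 was 125th, with 0.949 in BRC and 0.446 in ddH2O. The clusters of a library share its depth and its free RNA, so these values describe likeness of pattern only.

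In the nuclei far above background, the genes other than members with the largest CPM ratio to the other nuclei were LOC411186 (9.77 times) and LOC100577039 (8.55 times) in BRC, and LOC102655131 (1707 times) and LOC102654581 (245 times) in ddH2O. Among genes with a name in BRC, NPF, for a neuropeptide, came highest at 6.99 times, with 78 UMIs in these nuclei and 33 in the others.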

How the data were processed

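The authors aligned reads to Amel_HAv3.1 with Cell Ranger and deposited raw UMI counts per gene and barcode. The labels name Cell Ranger 7.0.1, Seurat 5.1.0 and R 4.4.0, but the BRC file header names Cell Ranger 7.2.0 and the ddH2O header 7.0.1, and whether intronic reads were counted is not given in the sources used here. The matrices list 12635 features for BRC and 12245 for ddH2O. The fewest UMIs of a barcode were 1142 in BRC and 2475 in ddH2O, with medians of 2109 and 3327. The libraries share 120 barcode sequences, 8 and 1 of them far above the Mrjp background. Brains were pooled from 15 foragers per library by the series text, and the study's methods give a larger number.

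UMIs were summed over all barcodes and scaled to CPM over the 12245 genes listed for both, with exact Poisson, exact conditional and Clopper-Pearson 95% intervals. These cover counting error only, also where amplification copies escape the molecular identifiers. Fold calls took genes with at least 100 UMIs, and counts of 0 were held against a floor of 3 UMIs. Nuclei were thinned to 1000 UMIs for shares.

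For clusters the filters of the study were applied (log10 genes per log10 UMI over 0.85, 200 to 5000 genes, mitochondrial share under 5%), which 18691 BRC and 19876 ddH2O barcodes passed. Likely doublets were called by the method of Scrublet at 0.8% per 1000 nuclei, in place of scDblFinder, leaving 15896 and 16716 nuclei. Seurat 5.3.0 (R 4.3.3) integrated and clustered them. The members and the matched genes of the lists, except the photoreceptor list, were kept out of the variable features. Types were named "-like" from marker genes of the study, by at least 3 raised markers (1.5-fold). At least 1 of these was of the type itself, and the rest could be general glial or neuronal markers. Where more than 1 type qualified, the type with the most raised single marker was taken. In the ensheathing-like cluster ebony was raised beside the astrocyte markers Gat-1B, GlnS and moody. Shares may therefore differ from the study's own annotation. Sums, intervals and figures were made with scipy 1.17.1, numpy 2.4.6, pandas 2.3.3 and matplotlib 3.10.9 under Python 3.11.15, and the scripts were tested on simulated data. Alternatives covered barcodes, scaling, thinning, limits of the Poisson call and clustering.

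The members and lists were chosen with earlier results of these data known. The text names all 9 members, list genes with at least 100 UMIs, the most like of the 10 genes ranked by Pearson r, and the leading of the 10 genes by CPM ratio in nuclei far above background with at least 50 UMIs there. Genes with only an identifier are limited to 2 per direction. Genes beside the locus and the markers of single clusters were named after their values were seen.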

Additional observations from a re-analysis of the deposited data

How the results depend on the processing

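No paired analysis was possible because each condition is a single library and the labels pair no samples, and no result could be recomputed without a replicate. Of 186 alternative values, 79 stayed within the interval of the main value and 107 moved outside it. None changed sign, which levels, counts and shares cannot do, so this bears on log2 values only. The 62 alternative log2 ratios of single members were all above 0. The log2 ratio of the family, 3.37, was 3.04 in barcodes that passed the filters, 3.07 in those without likely doublets, 2.83 without the nuclei far above background, 3.39 with median-of-ratios scaling, 3.39 without the 50 most abundant genes, 3.30 with nuclei thinned to 1000 UMIs and, chosen after seeing the data, 3.32 in barcodes at least as deep as the shallowest of ddH2O and 3.37 without shared barcodes. The log2 change of Mrjp3 to Mrjp6, -6.82, was -7.88 without the nuclei far above background and -7.47 in filtered nuclei without likely doublets. Nuclei with any member were 99.97% of BRC and 91.9% of ddH2O unthinned, and 98.99% and 54.0% thinned in filtered nuclei without likely doublets. The 1762 BRC nuclei far above background became 2693 at a tail of 1e-04, 1051 with the background rate from all nuclei and 670 in filtered nuclei without likely doublets, whereas the ddH2O number of 84 stayed within 1.5 times, at 58 to 110. The log2 ratio of the median family CPM of the BRC clusters to that of the ddH2O clusters, 3.09, was 2.99 with likely doublets kept and 3.01 without the nuclei far above background. The log2 ratio of Mrjp3 ranged from 0.17 to 1.39 and that of Mrjp8 from 0.66 to 1.02, so both cross 2-fold with the setting. The causes were not tested. Scaling by transcript length was not run and gene span was used instead. The 6 Mrjp9 and 405 Mrjp6 UMIs of ddH2O set the precision of their ratios.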
